A study of Mus musculus with 32 samples.

Results

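Microglia that had refilled the spinal cord after a depletion were compared with microglia that had never been depleted, in male mice with a fracture. The comparison takes 12 of the 32 libraries of the series, chosen by their labels alone. They are the 7 columns named iDTR fracture (repopulated) and the 5 named WT fracture (resident) in the male table of estimated transcript counts, whose transcripts were summed to genes. The label Cx3Cr1-Cre;Rosa26-iDTR stands as genotype on all 12, and day 14 as time, with no statement of what the day is counted from. In this cross tamoxifen turns on a diphtheria toxin receptor in cells that use the Cx3cr1 promoter, and diphtheria toxin then kills them for a time. Mice of the repopulated group are labelled as depleted and mice of the resident group as not depleted. The columns call the resident libraries WT although the genotype label is shared, so effects of repopulation, of genotype and of the toxin itself cannot be told apart. The cells were obtained by fluorescence-activated sorting, and neither the sorting markers nor the broken bone are named in the sources used here. No label says that each library came from its own animal. The p-values therefore rest on spread among libraries, part of which may be technical.

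Microglia are the tissue macrophages of the brain and spinal cord. At rest they carry a set of surface proteins that sense nucleotides and chemokines, and when disturbed they raise lysosomal proteases, lipid carriers and antigen-presenting molecules. In the spinal cord they are known for relaying injury to pain neurons through the purinergic receptor P2X4, cathepsin S and the CSF1 receptor. Type I interferon is read by many cells through a complex that includes STAT2 and IRF9 and binds a repeated GAAA element in front of antiviral genes.

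The listed transcripts summed to 11770850 to 33697535 estimated counts in the resident libraries and 9644000 to 14914799 in the repopulated ones, and 2 resident libraries (2 and 3) lay above all others. Genes at 0 numbered 106 to 270 in repopulated libraries and fewer in every resident library. The first principal component of log2 CPM (counts scaled to a common library total with TMM factors) held 16.3% of the variance and separated the groups, with resident libraries at -39.9 to -23.2 and repopulated ones at 3.2 to 44.2. Library numbers are names taken from the labels. Repopulated libraries 1, 5 and 2 led the next 3 components, and library 1 was the repopulated library nearest to the resident group for 170 of the 364 genes called higher and 80 of the 225 called lower. Csf1r, the growth factor receptor of macrophages in general, was high in every library, at 10819 to 12808 CPM over the 12 libraries. P2ry12, a marker of microglia, stood at 6576 to 7340 CPM in resident libraries and lower, at 3659 to 6208 CPM, in repopulated ones.

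In repopulated microglia many interferon-response, chemokine, MHC class I, cathepsin and ribosomal protein genes were higher, and 8 homeostatic genes were lower. Of 11999 genes tested, 589 were called at an adjusted p below 0.05 in the quasi-likelihood test of edgeR (Benjamini-Hochberg adjusted), which is 4.91%. Of these, 364 (3.03%) were higher and 225 (1.88%) lower in repopulated cells, and 122 and 34 of them changed more than 2-fold. The 7 repopulated and 5 resident values did not overlap for 430 genes (3.58%), among them 201 of the genes called higher and 128 of those called lower. Over all genes the log2 change had a median of -0.005. When libraries were scaled by their totals alone, that median was -0.05, and 303 genes were called higher and 338 lower. The balance of rises to falls thus depends on the scaling. A transcript seen in resident libraries alone could not be listed, so some large falls may be missing. Leaving out 1 library at a time gave 400 (without resident library 5) to 716 calls (without repopulated library 1), and 320 of the 589 calls were made in all 12 such fits.

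**Figure D1:**
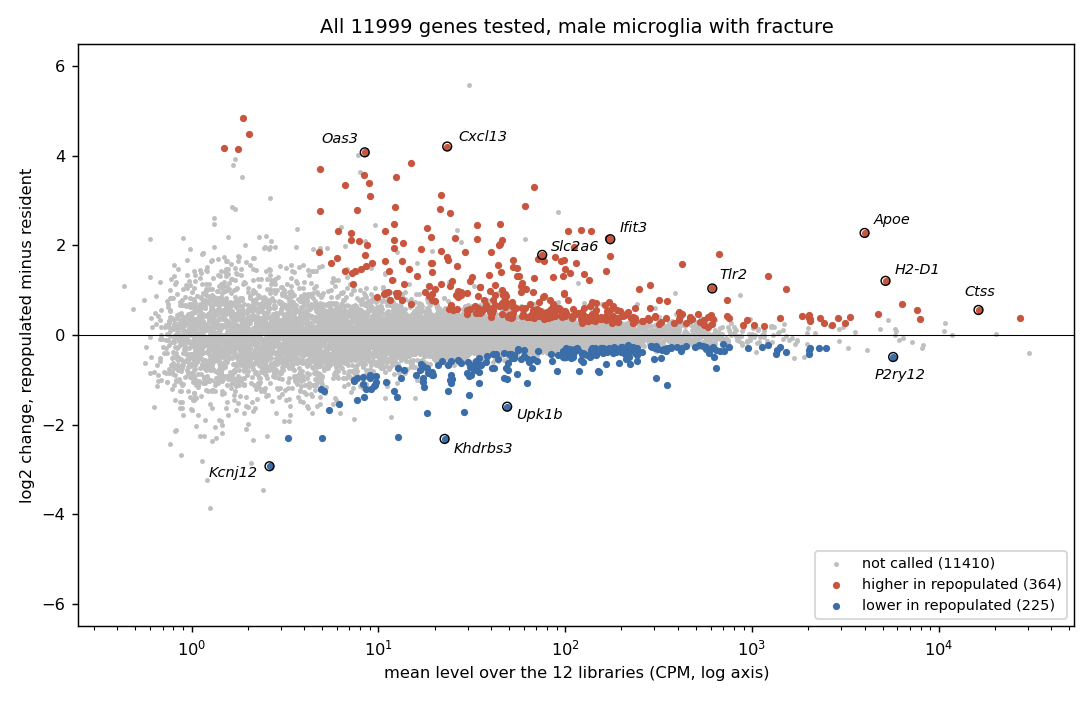
The log2 change of each of the 11999 genes (repopulated minus resident, vertical axis) against its mean level over the 12 libraries in CPM (horizontal log axis), with 364 genes called higher in red, 225 called lower in blue and the rest in grey; circles mark named genes. Among the called genes marked by circles, Cxcl13 and Oas3 lie highest (4.21 and 4.08) and Kcnj12 lowest (-2.93).

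The gene of smallest p was Slc2a6, a sugar transporter of lysosomal membranes. It measured 37.5, 24.3, 25.6, 33.1 and 34.0 CPM in resident libraries 1 to 5, and 66.8 to 135 CPM in the repopulated libraries, with means of 30.9 ± 5.68 (SD, n = 5) and 107 ± 25.1 CPM (SD, n = 7). The groups lay apart, with a log2 change of 1.79 ± 0.17 (SE) and an edgeR adjusted p of 1.22e-05. Fewer cells of a type and less RNA per cell cannot be told apart in such bulk samples, here and below.

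The interferon-response genes rose as a group. All 38 measured members of the list had a positive change, 32 were called higher and none lower, and the median log2 change was 1.68 against -0.005 for all genes. The values for Ifit3, which binds viral RNA with its IFIT partners, were 83.3, 48.4, 42.9, 61.0 and 55.5 CPM in the resident libraries. In the repopulated libraries they ran from 92.8 over a median of 200 to 475 CPM, all above the resident values, with a log2 change of 2.14 ± 0.36 (adjusted p = 0.00311). Oas3, an enzyme that makes the second messenger of RNase L, was at 0.382, 0.751, 0.794, 0.904 and 1.27 CPM in resident and at 1.83 to 41.7 CPM (median 6.91) in repopulated libraries. Its log2 change was 4.08 ± 0.74 (adjusted p = 0.00311), although a limma-voom fit did not call it. Oas2, of the same enzyme family, rose by 3.84 ± 0.6, Ifi44 by 3.57 ± 0.62 and Ifit1 by 2.13 ± 0.29, each without overlap. Genes of the Ifi, Ifit and Oas families have near-identical copies, so reads may be split between them and single members are uncertain.

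The 6 list members not called in the main edgeR fit were Isg20, Ddx58, Irf9, Slfn2, Trim30a and Parp14. Their log2 changes were 1.39, 0.65, 0.28, 0.7, 0.6 and 0.65. DESeq2 called 36 of the 38 members.

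The size of the interferon response differed between repopulated libraries. Relative to the resident mean, the average log2 level of the 38 genes was -0.29 to 0.24 in resident libraries. In repopulated libraries 1 to 7 it was 0.55, 1.38, 1.62, 1.55, 1.41, 2.61 and 2.6. Among the 32 called members, library 1 was the lowest repopulated library for 30, and library 6 or 7 the highest for 18 and 14. Libraries 1 to 3 of each group carry identifiers in the range V64 to V69 and the others in V99 to V110, and the median of the list was 1.02 within the first range and 2.02 within the second. The number called was 21 without resident library 2 and 18 with library depth as a covariate, while the median stayed at 1.52 in the latter.

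The start regions of these genes often hold the element that interferon-activated factors read. Of the 38 measured members, 28 had a promoter in RefSeq's table for build GRCm38.p6 (250 bases before to 50 after a gene's start), and 17 of them (60.7%) held GAAA, any 2 bases and GAAA on either strand. The share among all 27025 genes of the table was 3.99%. A match is a description of letters and was not tested as a binding site. The 250 bases before the start are shown 5′ to 3′ on the gene's strand for 4 members that differ in the number and direction of matches, with the matches in capitals.
Isg15 (chr4:156200819-156201068, minus strand): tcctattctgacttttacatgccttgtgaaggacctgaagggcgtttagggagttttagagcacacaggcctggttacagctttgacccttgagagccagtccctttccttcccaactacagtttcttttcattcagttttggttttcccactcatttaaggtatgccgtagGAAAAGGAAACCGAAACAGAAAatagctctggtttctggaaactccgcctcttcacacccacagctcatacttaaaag
Ifit3 (chr19:34583279-34583528, plus strand): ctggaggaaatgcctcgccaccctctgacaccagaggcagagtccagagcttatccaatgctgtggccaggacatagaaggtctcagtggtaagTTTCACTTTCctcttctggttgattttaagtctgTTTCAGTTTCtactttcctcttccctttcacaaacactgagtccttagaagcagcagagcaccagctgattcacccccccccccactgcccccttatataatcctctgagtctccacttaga
Rsad2 (chr12:26456453-26456702, minus strand): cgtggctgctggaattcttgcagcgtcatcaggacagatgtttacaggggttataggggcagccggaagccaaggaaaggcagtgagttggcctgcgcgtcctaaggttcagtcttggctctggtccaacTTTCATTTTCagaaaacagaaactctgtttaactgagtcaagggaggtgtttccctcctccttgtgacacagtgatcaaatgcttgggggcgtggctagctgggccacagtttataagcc
Oas3 (chr5:120777660-120777909, minus strand): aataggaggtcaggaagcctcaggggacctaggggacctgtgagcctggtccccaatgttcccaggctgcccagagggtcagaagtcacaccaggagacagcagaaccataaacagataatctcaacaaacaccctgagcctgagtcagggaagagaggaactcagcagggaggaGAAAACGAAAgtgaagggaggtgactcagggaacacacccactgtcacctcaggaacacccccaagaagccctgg

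Isg15, a ubiquitin-like protein, has 3 overlapping matches in 1 run, Ifit3 has 2 matches on the opposite strand, Rsad2 (viperin, an antiviral enzyme) 1 on the opposite strand and Oas3 1 on the gene's own strand. Their log2 changes were 1.68, 2.14, 2.48 and 4.08.

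**Figure D2:**
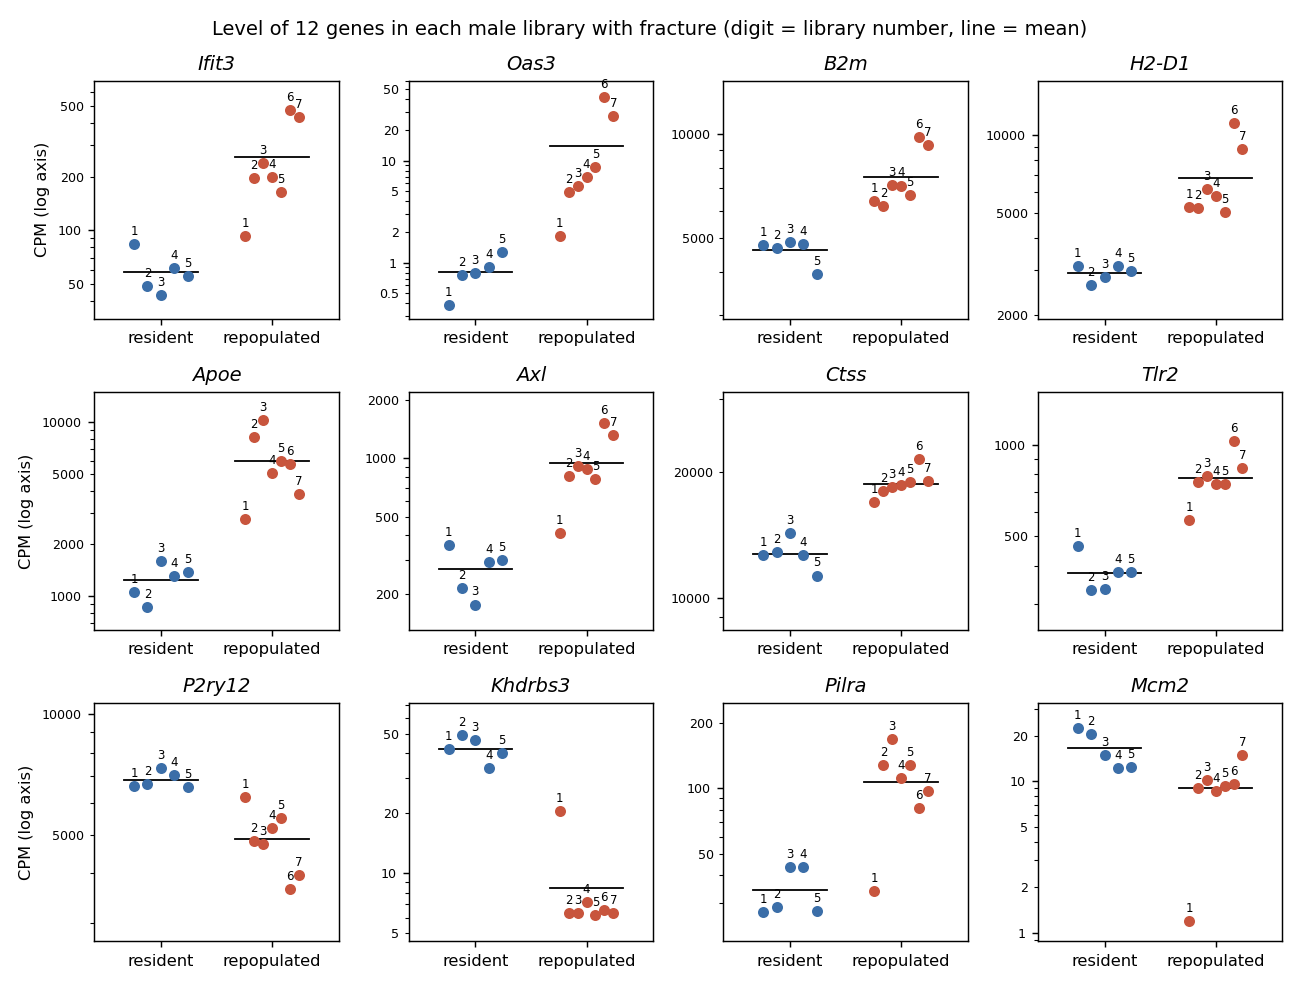
Level of 12 genes in CPM (log axis, a separate scale per gene) in each of the 5 resident (blue) and 7 repopulated (red) libraries; digits are library numbers and lines group means. Repopulated library 1 lies nearest the resident group for Ifit3, Apoe, P2ry12, Khdrbs3 and Pilra, and libraries 6 and 7 are highest for Ifit3, Oas3, B2m, H2-D1 and Axl.

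MHC class I genes, whose products show cell-internal peptides to T cells, were higher in repopulated microglia. Of 21 measured genes for class I and its peptide loading, 10 were called higher and none lower, with a median of 0.46. B2m, the shared light chain, stood at 4781, 4687, 4883, 4829 and 3959 CPM in resident and 6200 to 9834 CPM (median 7113) in repopulated libraries. The groups lay apart and the change was 0.7 ± 0.11 (adjusted p = 0.000576). H2-D1, a classical heavy chain, rose by 1.21 ± 0.18, from 2625 to 3114 CPM in resident to 5053 to 11163 CPM in repopulated libraries. The non-classical chains H2-Q7 and H2-M3 rose by 2.33 ± 0.41 and 0.56 ± 0.11, and the H2 genes are alike enough for reads to be shared between them. Peptide transporter Tap1 had a change of 0.7 and did not pass. The number of class I calls was 6 with library totals, with depth as a covariate, or without resident library 2, 3 or 5 or repopulated library 4 or 6.

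Class II genes did not move together. Of 12 measured genes, 2 were called higher and 1 lower, with a median of 0.3. H2-Aa, a class II chain, was at 8.17, 7.79, 9.29, 57.5 and 18.0 CPM in resident libraries and 14.1 to 59.5 CPM in repopulated ones, with the highest resident value in library 4. Cd74, the class II chaperone, showed the same resident library on top (551 CPM against 113 to 213 in the other 4), and neither gene was called (adjusted p = 0.732 and 0.489). The costimulatory receptor Cd40 rose by 2.29 ± 0.55 and H2-Oa by 0.42 ± 0.11, while the T-cell ligand Cd80 fell by 0.7 ± 0.15. The Cd40 call ended without resident library 3 or 5, that of H2-Oa without resident library 3 or 5 or repopulated library 6, and all 3 ended with depth as a covariate.

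Chemokine genes rose strongly, with 9 of 17 measured chemokine and receptor genes called higher, 2 lower and a median of 1.17. Cxcl13, which draws B cells, had the largest rise among called genes of at least 5 CPM without overlap. Its resident values were 2.52, 1.18, 1.71, 3.55 and 1.75 CPM and its repopulated values 11 to 118 CPM (median 17), for a change of 4.21 ± 0.71 (adjusted p = 0.00292). Ccl5, a T cell attractant, rose by 3.3 ± 0.64, from 5.25 to 16.6 CPM in resident to 26.1 to 296 CPM in repopulated libraries. The monocyte attractants Ccl2 and Ccl12 rose by 2.04 ± 0.25 and 1.58 ± 0.23, and Cxcl16 by 1.02 ± 0.15, all without overlap. Ccl6, a myeloid chemokine, fell by 0.62 ± 0.1, from 219 to 283 CPM in resident to 131 to 206 CPM in repopulated libraries. Fractalkine receptor Cx3cr1, whose promoter drives the Cre, measured 3858, 3668, 3908, 3321 and 3405 CPM in resident and 2429 to 3522 CPM in repopulated libraries and did not pass (-0.28 ± 0.08, adjusted p = 0.0675).

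Genes known from disease-associated microglia, a lipid-handling and phagocytic state, were mostly higher. Of 24 measured, 15 were called higher and 1 lower (Ccl6), with a median of 0.46. Some members, among them B2m, Ctsb, Apoe and Ccl6, also stand in other lists described here. Apoe, the lipid carrier (chr7:19696109-19699188, minus strand, GRCm38), was at 1047, 862, 1593, 1295 and 1371 CPM in resident libraries. In repopulated libraries it was at 2785 to 10241 CPM (median 5736), with no overlap and a change of 2.28 ± 0.33 (adjusted p = 0.00107). The highest Apoe values were in repopulated libraries 2 and 3 (8183 and 10241 CPM), not in libraries 6 and 7, which led the interferon genes. Axl, a receptor for dying cells that also belongs to the interferon-induced genes, rose by 1.82 ± 0.28, from 176 to 358 CPM in resident to 409 to 1511 CPM in repopulated libraries. The protease inhibitor Cst7 rose by 1.51 ± 0.24, the sterol hydroxylase Ch25h by 1.92 ± 0.39 and the integrin Itgax by 1.57 ± 0.35, of which only Itgax overlapped between the groups. The Itgax call ended without resident library 2 and with depth as a covariate. Not all genes of this state moved: the lipid receptor Trem2, its adaptor Tyrobp and the lipase Lpl had changes of 0.15, 0.17 and 0.18 and did not pass.

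Lysosomal proteases were mostly higher, by small steps apart from 1 member. Of 11 cathepsin genes, 8 were called higher and none lower (median 0.37). Ctss, the protease linked to spinal pain signalling, measured 12663, 12878, 14338, 12667 and 11310 CPM in resident and 16983 to 21495 CPM (median 18656) in repopulated libraries. The groups lay apart, and the change of 0.56 ± 0.07 had an adjusted p of 6.47e-05. Ctsh rose by 0.42 ± 0.05, Ctsa by 0.35 ± 0.05 and Ctsb by 0.55 ± 0.09, each without overlap. Ctse, at 2.25 to 5.58 CPM in resident and 4.48 to 14.2 CPM in repopulated libraries, had a change of 1.38 ± 0.32 (adjusted p = 0.0134), and Ctso had one of -0.09 and was not called. Ctsd, the main aspartic protease, rose by 0.37 ± 0.09, but resident library 3 (29651 CPM) lay within the repopulated range of 27420 to 34634 CPM.

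Of 30 other lysosome and phagocytosis genes, some shared with the lists above, 9 were called higher and 1 lower (median 0.17). Lamp1, a membrane glycoprotein, rose by 0.39 ± 0.05, the hexosaminidase subunit Hexa by 0.38 ± 0.06 and Grn, the progranulin gene, by 0.48 ± 0.08. Cd68, a macrophage lysosome marker, had a change of 0.11 ± 0.1 and was not called. Gas6, the bridging ligand of Axl, fell by 0.44 ± 0.12, and that call ended in 8 of the 12 fits without 1 library.

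The sequence CACGTG, the core read by helix-loop-helix factors such as the lysosomal regulator TFEB, was searched in the same promoter table for these lists. The lists were chosen with earlier results of these data known. It was present in 4 of the 8 cathepsin genes with a promoter (50%: Ctsa, Ctsd, Ctsf and Ctsl) and 7 of 26 lysosome genes (26.9%), against 8.09% of all genes in the table. The letters of the 2 strands are the same for this motif. Ctsd, shown 5′ to 3′ with matches in capitals, holds 2 of them in the 250 bases before its start.
Ctsd (chr7:142387828-142388077, minus strand): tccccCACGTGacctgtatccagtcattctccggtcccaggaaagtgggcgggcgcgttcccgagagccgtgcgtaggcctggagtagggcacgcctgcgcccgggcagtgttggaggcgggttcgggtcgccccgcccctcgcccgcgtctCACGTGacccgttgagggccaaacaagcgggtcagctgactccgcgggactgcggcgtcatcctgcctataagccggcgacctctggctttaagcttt

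Cytosolic ribosomal protein genes were higher in repopulated cells, with 16 of 42 called higher, none lower and a median of 0.32. Rpl3, of the large subunit, was at 157, 175, 157, 157 and 139 CPM in resident and 200 to 246 CPM (median 236) in repopulated libraries, apart by 0.53 ± 0.08 (adjusted p = 0.000429). Rpl35 rose by 0.6 ± 0.1, Rpl13 by 0.52 ± 0.08 and Rpl4 by 0.47 ± 0.07. The number called was 10 without resident library 1 and 9 without resident library 5. Genes of the respiratory chain did not share this: none of 32 nuclear and none of 12 mitochondrial genes was called by edgeR (medians 0.01 and -0.08), with 3 and 2 at an unadjusted p below 0.05 and 1 and 0 called by DESeq2. Of 21 glycolysis genes 3 were called higher, among them Pkm, the last enzyme of the pathway (0.4 ± 0.08).

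**Figure D3:**
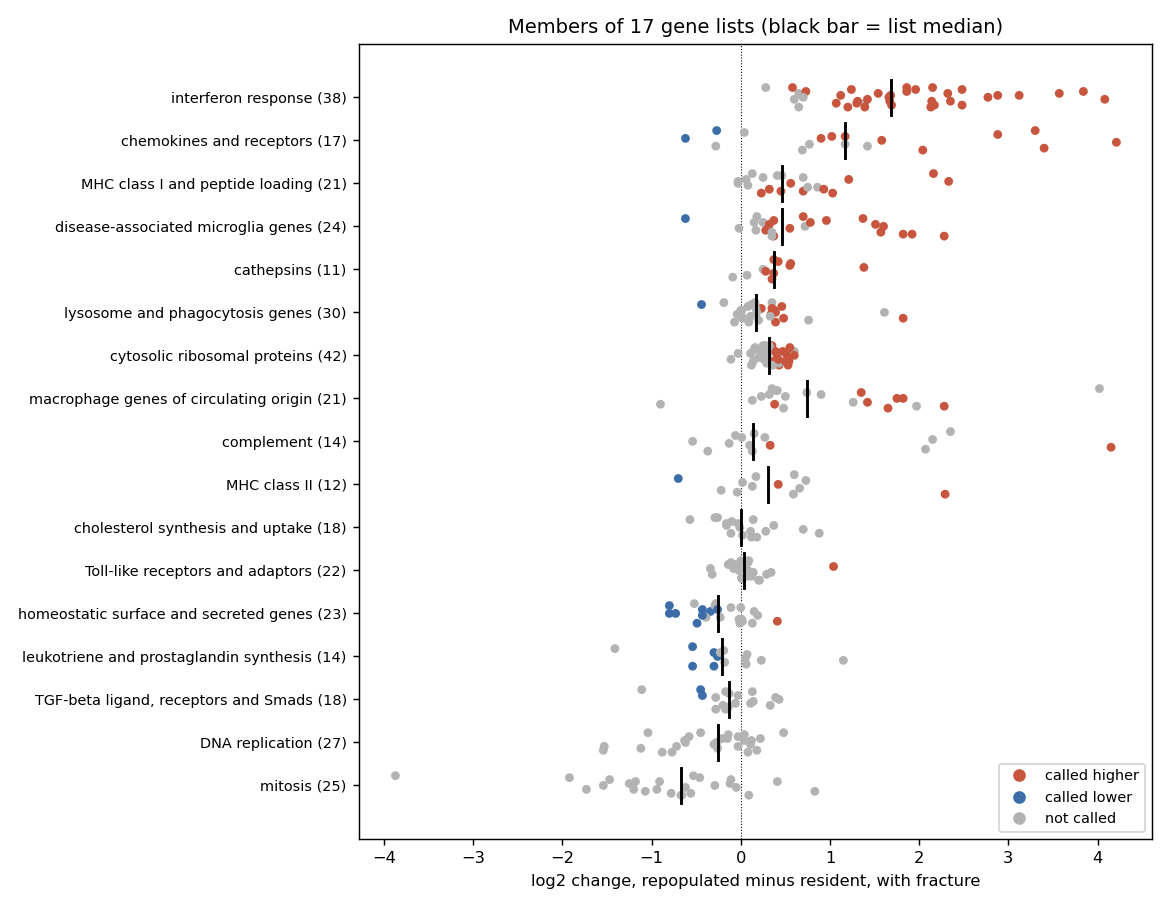
Log2 change (repopulated minus resident, horizontal axis) of each measured member of 17 gene lists, with the number of members in brackets, called members in red or blue, others in grey and the list median as a black bar. Interferon-response members all lie right of 0 (median 1.68), homeostatic genes centre at -0.26 and cholesterol synthesis at 0.00.

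Homeostatic surface and secreted genes were lower on balance. Of 23 measured, 8 were called lower and 1 higher (median -0.26), and the falls were modest. P2ry12, the ADP receptor that steers microglial processes to injury, measured 6594, 6671, 7340, 7049 and 6576 CPM in resident and 3659 to 6208 CPM (median 4817) in repopulated libraries. All repopulated values were lower, with a change of -0.49 ± 0.09 (adjusted p = 0.00288), and library 1 came closest at 6208 CPM. The fructose transporter Slc2a5 fell by 0.73 ± 0.12 and the crystallin gene Crybb1 by 0.8 ± 0.12. Tmem119, the usual marker of microglia, was at 8585 to 9418 CPM in resident and 6366 to 8722 CPM in repopulated libraries and was not called (-0.23 ± 0.07, adjusted p = 0.0643). Csf1r had a change of 0.00 ± 0.05, of a sign that varied with the settings, with 10819 to 12808 CPM in resident and 11115 to 12520 CPM in repopulated libraries. Gpr84, a receptor for medium-chain fatty acids, was the one member called higher (0.41 ± 0.08).

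Among the 15 transcription factors of microglial identity, 1 was called higher and 1 lower. Maf fell by 0.53 ± 0.11, from 225 to 287 CPM to 140 to 201 CPM. Sall1, which keeps microglia distinct from other macrophages, had 389 to 455 CPM in resident and 299 to 387 CPM in repopulated libraries. These did not overlap, but the change of -0.24 ± 0.08 did not pass (adjusted p = 0.109). Of 18 genes of TGF-beta signalling, on which microglial identity depends, Tgfbr1 and Eng were called lower and none higher (median -0.13). Tgfbr1, the type I receptor, was at 1870, 1409, 1433, 1517 and 1690 CPM in resident and 1047 to 1232 CPM (median 1187) in repopulated libraries (-0.43 ± 0.09, adjusted p = 0.00409). The coreceptor Eng fell by 0.45 ± 0.09.

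The largest falls among called genes of at least 5 CPM without overlap were outside these lists. Khdrbs3, an RNA-binding splicing regulator (chr15:68928420-69101211, plus strand, GRCm38), was at 42.0, 49.3, 46.7, 33.9 and 40 CPM in resident libraries. In repopulated libraries it was at 6.18 to 7.18 CPM in 6 libraries and at 20.5 CPM in library 1, with a change of -2.32 ± 0.27 (adjusted p = 3.65e-05). Gpr165, an orphan receptor on the X chromosome, fell by 2.27 ± 0.35, from 15.9 to 30.3 CPM to 0.46 to 6.82 CPM. Tmem204, a membrane protein, fell by 1.71 ± 0.19, from 41.2 to 52.7 CPM to 7.38 to 19.6 CPM, and the uroplakin gene Upk1b by 1.6 ± 0.22. Bank1, a B cell scaffold protein also found in myeloid cells, fell by 1.75 ± 0.31 and Nrarp, a feedback inhibitor of Notch, by 1.38 ± 0.31. The potassium channel gene Kcnj12 had the most negative fitted change among these, predicted genes left out (-2.93 ± 0.73). It was at 2.37 to 8.4 CPM in resident and 0.0 to 1.5 CPM in repopulated libraries. Its call ended without resident library 2 or 3, with identifier range as a factor and with depth as a covariate.

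Other rises among the 10 largest included genes of known immune roles. Siglec1, a sialic acid receptor of macrophages that interferon induces, rose by 3.36 ± 0.53, from 0.305 to 2.85 CPM to 6.31 to 19.4 CPM. Il12b, a subunit of interleukins 12 and 23, had 0.0 to 1.82 CPM in resident and 2.39 to 21.7 CPM in repopulated libraries (3.7 ± 0.88), and its call ended with depth as a covariate. Atp10a, a phospholipid flippase, rose by 3.1 ± 0.55. The complement gene C2, with means below 5 CPM and so not among those 10, was at 0 in resident libraries 2, 3 and 5. It was above 0 in all repopulated libraries, where it reached 6.74 CPM. Its fitted change of 4.15 ± 0.96 thus rests on few counts, and the call ended with depth as a covariate. No resident library with fracture held 10 counts of it, so it was listed without them and had to differ. Of the other complement genes measured, Itgb2, the beta chain of complement receptor 3, was called (0.33 ± 0.06).

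Toll-like receptor and cytokine genes gave few calls. Tlr2, the receptor for bacterial lipopeptides, rose from 464, 333, 335, 381 and 381 CPM to 566 to 1025 CPM (median 753), without overlap and with a change of 1.04 ± 0.11 (adjusted p = 1.59e-05). It was the only one called of 22 Toll-like receptor and adaptor genes, whose median was 0.04. Il1b and Tnf, the main inflammatory cytokines, had changes of 0.81 ± 0.31 and 0.86 ± 0.34 with overlapping values and were not called (adjusted p = 0.165 and 0.189). In the interleukin 1, TNF and inflammasome list 1 of 16 was called, the receptor antagonist Il1rn (2.13 ± 0.52). That call ended without resident library 2, 3 or 5. The list median was 0.26, with 7 genes higher and 2 lower at an unadjusted p below 0.05 by edgeR. Of 13 NF-kB genes, Nfkbiz (1.1 ± 0.21), the inhibitor Nfkbia (0.41 ± 0.1) and the subunit Relb (0.4 ± 0.11) were called higher. The Relb call ended in 6 of the 12 fits without 1 library and with library totals or depth as a covariate.

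Genes tied to pain signalling by microglia went both ways. Of 18 such genes 4 were called higher and 2 lower (median 0.07). P2rx4, the ATP-gated channel of microglial pain signalling, was at 189, 173, 196, 170 and 183 CPM in resident and 226 to 332 CPM (median 274) in repopulated libraries, apart by 0.6 ± 0.08 (adjusted p = 0.000199). Its relative P2rx7 had a change of 0.05 and was not called. Among nucleotide and adenosine receptors, P2ry13 fell by 0.43 ± 0.08 like P2ry12, while the adenosine receptor Adora1 rose by 1.61 ± 0.3. Csf1, the ligand of Csf1r, rose by 0.96 ± 0.26, and that call ended in 6 of the 12 fits without 1 library. Enzymes of leukotriene and prostaglandin synthesis were lower: 5 of 14 were called lower and none higher (median -0.21), among them Ptgs1 (-0.26 ± 0.06), Alox5 (-0.54 ± 0.15) and Tbxas1 (-0.3 ± 0.08). These 5 calls depended on single libraries: 0 were made without repopulated library 7, 1 without resident library 1, 2 or 5, and 1 with depth as a covariate.

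Several programs gave no calls in the main edgeR fit of the male libraries. None of 18 cholesterol synthesis genes was called (median 0.00, 1 at an unadjusted p below 0.05, 0 by DESeq2). Of 25 mitosis and 27 replication genes none was called, with 4 and 6 at an unadjusted p below 0.05 and 0 and 3 called by DESeq2, all lower, and medians of -0.67 and -0.26. Mki67, a marker of dividing cells, was at 2.93 to 5.33 CPM in resident libraries. In the repopulated ones it was at 0.0982 to 0.205 CPM in libraries 1, 4 and 5 and at 1.57 to 7.17 CPM in the other 4, so the values spread over both sides of the resident range. Mcm2, a replication helicase subunit, was at 12.2 to 22.6 CPM in resident and 1.19 to 15 CPM in repopulated libraries (-0.88 ± 0.33, adjusted p = 0.161). Immediate-early genes, which can rise while tissue is taken apart, gave no call among 24 (4 at an unadjusted p below 0.05, 3 by DESeq2, 4 without repopulated library 1). Their level was high in repopulated library 1, where Fos stood at 324 CPM against 0.0357 to 20.8 CPM in the other 11 libraries.

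**Figure D4:**
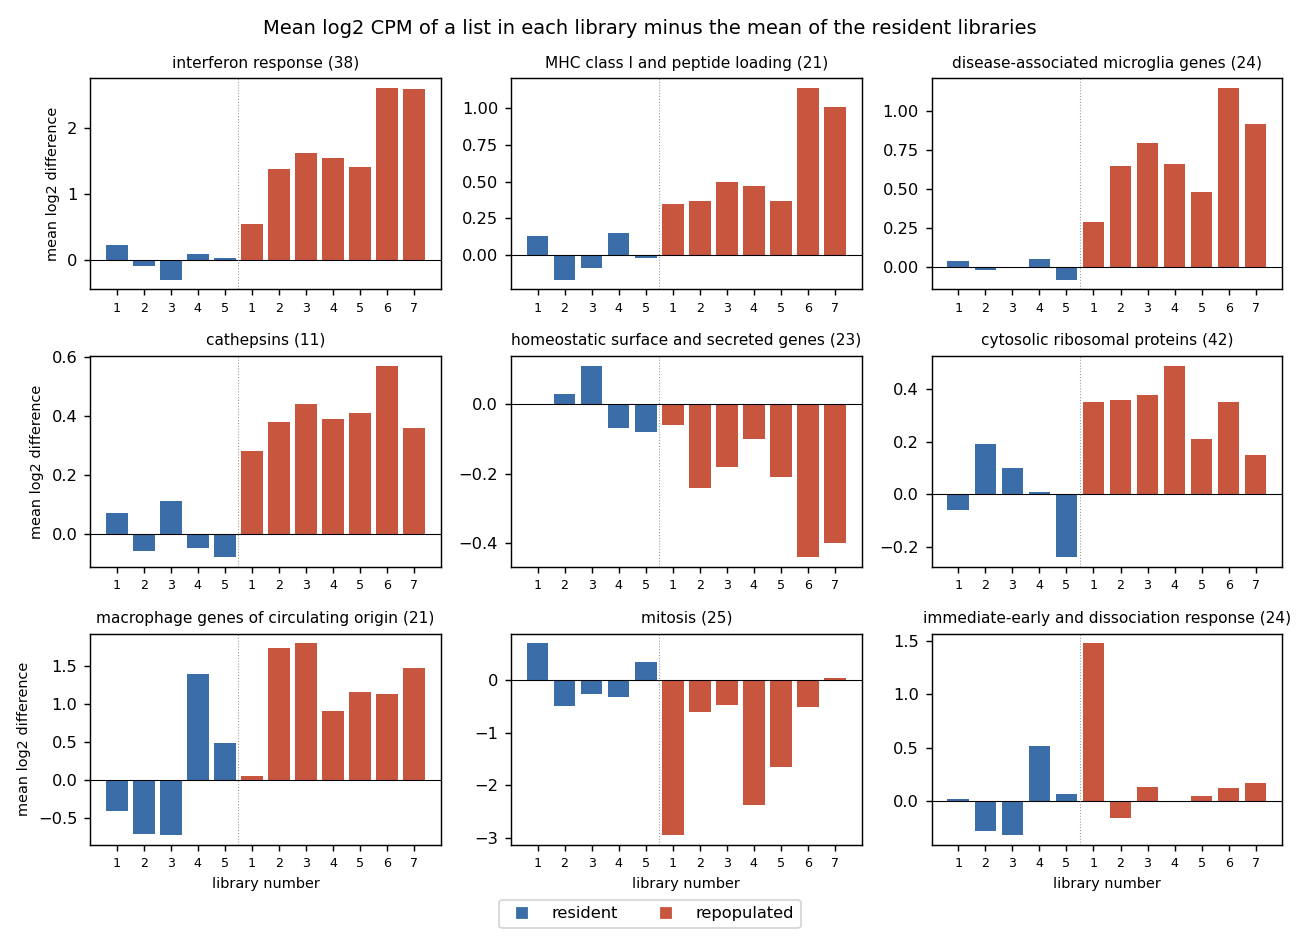
Mean log2 CPM of 9 gene lists in each library minus the mean of the 5 resident libraries (vertical axes on separate scales), with resident libraries in blue and repopulated ones in red. The interferon list is lowest in repopulated library 1 (0.55) and highest in libraries 6 and 7 (2.61 and 2.6), while the circulating macrophage list is also high in resident library 4 (1.39).

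Markers of macrophages of circulating origin moved with the groups and within them. Of 21 measured, 7 were called higher and none lower (median 0.74), among them Pilra, Cybb, Apoe, Axl and Ifitm3, of which the last 3 also stand in the lists above. The list's average log2 level relative to the resident mean was -0.73 to -0.42 in resident libraries 1 to 3, 1.39 and 0.48 in resident libraries 4 and 5, and 0.05 to 1.8 in repopulated libraries. Its members summed to 1897 to 3259 CPM in resident and 4463 to 13848 CPM in repopulated libraries. Much of this was Apoe, alone at 862 to 1593 and 2785 to 10241 CPM. Pilra, an inhibitory receptor, was at 27.1, 28.6, 43.7, 43.9 and 27.5 CPM in resident and 33.8 to 169 CPM (median 112) in repopulated libraries (1.65 ± 0.32, adjusted p = 0.00608). Only repopulated library 1 overlapped. Lyz2, lysozyme, had 412 to 830 CPM against 738 to 1614 CPM and was just outside the threshold (0.9 ± 0.25, adjusted p = 0.0571). Ms4a7 and Clec12a were at 0.0 to 1.83 and 0.0 to 5.56 CPM in resident libraries and reached 34.6 and 10.2 CPM in repopulated ones, highest in libraries 2 and 3. Neither was called in the fit of male libraries (4.02 ± 1.18 and 1.26 ± 0.98, adjusted p = 0.0697 and 0.621). The part of such cells in the results was not tested.

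Many markers of other cell types were not measured, so few calls cannot show that such cells were absent. None of 15 T and NK cell markers and none of 7 oligodendrocyte precursor markers was measured. Of 11 neutrophil markers 1 was measured, Csf3r, and it was called higher with overlapping values (0.36 ± 0.08, edgeR adjusted p = 0.0101). Monocyte markers gave no call among 7 measured (0 at an unadjusted p below 0.05, 0 by DESeq2), and the remaining 5, among them Ly6c2 and Ccr2, were not analysed here. Of 8 markers of border macrophages, Siglec1 rose and Stab1 fell (-0.65 ± 0.1), and 6 of the 8 had a positive change (median 1.56, 5 higher at an unadjusted p below 0.05). The list's average log2 level relative to the resident mean was -0.86 to 0.78 in resident and 0.59 to 2.31 in repopulated libraries. The 8 summed to 187 to 256 CPM in resident and 139 to 235 CPM in repopulated libraries, most of it Stab1, and their part in the results was not tested. Of 3 B cell markers measured, 2 were called lower, with Ighm at 379 to 462 CPM in resident and 321 to 398 CPM in repopulated libraries (-0.28 ± 0.07) and Cd79b at -0.9 ± 0.25. Those calls ended in 4 and 9 of the 12 fits without 1 library. Among 6 oligodendrocyte and 7 astrocyte genes, the iron carrier Trf (0.23 ± 0.06) rose and the glutamate transporter Slc1a3 (-0.43 ± 0.11) fell, and both are also made by microglia. The other 6 astrocyte genes had positive changes, up to 2.18 for Clu, from means below 4 CPM in resident libraries, and none was called (list median 1.05). The Trf call ended with library totals or depth as a covariate and without resident library 1 or 2 or repopulated library 3, and that of Slc1a3 without resident library 3 or 5. No neuronal, endothelial or red blood cell gene measured (3, 3 and 2) was called by edgeR, with 0, 2 and 0 at an unadjusted p below 0.05 and 0, 2 and 0 by DESeq2.

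Most genes called with fracture changed in the same direction in the same contrast without fracture. In 2 repopulated and 3 resident male libraries without fracture, 564 genes (4.7%) were called higher and 326 (2.72%) lower. Called in both states in the same direction were 416 genes, which is 70.6% of the calls with fracture and 46.7% of the 890 without, and none was called in opposite directions. Of the 589 genes called with fracture, 571 (96.9%) had the same sign without it, against 66.2% of all genes. The no-fracture change was the larger one for 309 of the 364 rises and 147 of the 225 falls. P2ry12 changed by -0.49 with and -1.12 without fracture, and Ifit3 by 2.14 and 3.57. The interferon list had a median of 1.68 with and 3.46 without fracture, and 37 of 38 members had the smaller change with fracture. Identifiers of male libraries without fracture all fall within V64 to V79, those with fracture within V64 to V69 or V99 to V110. Fracture state and identifier range therefore cannot be fully told apart in this comparison or in the interaction. Some list medians had opposite signs: mitosis was at -0.67 with and 0.77 without fracture, and DNA replication at -0.26 and 0.18. No mitosis or replication gene was called in either state. Monocyte markers were at -0.45 and 2.58, and astrocyte markers at 1.05 and -0.38.

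The difference between the effects with and without fracture was tested as an interaction. It was called by edgeR for 1 of 11999 genes (0.00833%), with 886 at an unadjusted p below 0.05, and for 49 by DESeq2, which gave no adjusted p for 10933 genes. Leaving out 1 library gave 0 calls (without resident fracture library 2, 3, 4 or 5 or repopulated fracture library 2 or 3) to 14 calls (without repopulated fracture library 6). For the interferon list 23 members had a smaller change with fracture at an unadjusted p below 0.05 and none a larger one, and the smallest adjusted p was 0.342, so no difference in size was established for it. The gene called was Bckdhb, a subunit of branched-chain keto acid breakdown. It had 0 counts in both repopulated libraries without fracture, where 3 counts would be 0.256 and 0.273 CPM, and 2.25 to 5.58 CPM in the resident libraries without fracture. With fracture it was at 2.36 to 4.97 CPM in resident and 1.37 to 8.61 CPM in repopulated libraries and was not called (0.48 ± 0.43, adjusted p = 0.69).

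**Figure D5:**
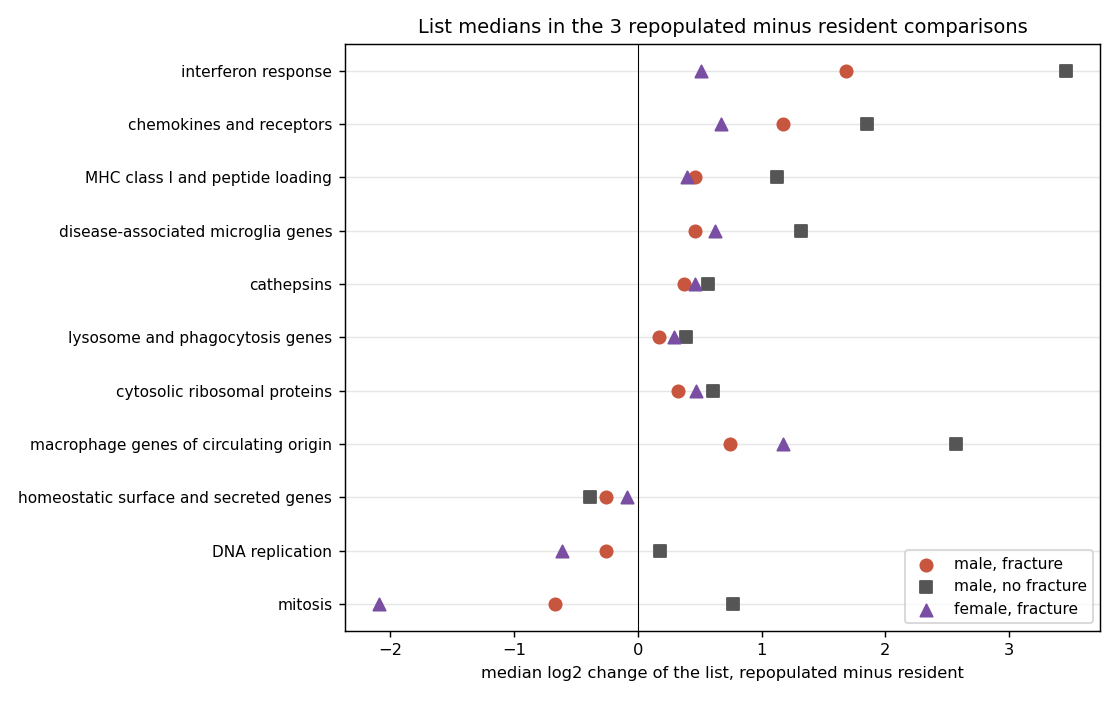
Median log2 change (repopulated minus resident, horizontal axis) of 11 gene lists in male libraries with fracture (red circles), male libraries without fracture (grey squares) and female libraries with fracture (purple triangles). The interferon list has medians of 1.68, 3.46 and 0.51, and the cathepsins 0.37, 0.57 and 0.46.

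Female microglia with fracture, 4 repopulated against 4 resident libraries, offered a separate set of samples made with another RNA and library protocol, so sex and protocol cannot be told apart. In 1 fit of all 32 libraries over 11617 genes listed for both sexes, 681 genes (5.86%) were called in males and 254 (2.19%) in females. Called in both in the same direction were 170, which is 25% of the male and 66.9% of the female calls. Of the 681 male calls, 639 (93.8%) had the same sign in females, against 63.5% of all genes. The cathepsins Ctss and Ctsh changed by 0.64 and 0.47 in females, Apoe by 2.76, Tlr2 by 0.86 and Upk1b by -2.01, and all 5 were called there. Of the mitosis genes, 5 were called lower in females and 0 in males in this fit, with medians of -2.09 and -0.68. Of the replication genes, 0 were called lower in females and 2 in males, with medians of -0.61 and -0.26. In the same fit Ms4a7 was called in both sexes, at 4.02 in males and 5.36 in females (adjusted p = 0.0354 and 0.0378). Clec12a was called in females (5.7) and not in males (1.27), and the difference did not pass (adjusted p = 0.933).

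The interferon genes had smaller changes in females. In the joint fit 33 of the 38 were called in males and none in females, with medians of 1.68 and 0.51, and the male change was the larger one for all 38. The female change of Ifit3 was 0.46 (adjusted p = 0.808) and that of Oas3 2.32 (adjusted p = 0.0914). The male minus female difference was called for none of the 11617 genes (0.0%) by edgeR, with 518 at an unadjusted p below 0.05 and 4 called by DESeq2. Of the 38 interferon genes, 23 were among those at an unadjusted p below 0.05, and their smallest adjusted p was 0.791.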

How the data were processed

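RNA was sequenced from sorted spinal cord microglia. Per the labels' protocols, male RNA came from the RNeasy Plus Micro kit, cDNA from SMART-Seq v4 and libraries from Nextera DNA Flex. The values deposited by the authors are expected counts (estimated counts per transcript, as whole numbers) in 1 table per sex, and a further deposited column, the mean absolute deviation over all libraries, was not used. The submitters' processing notes name RSEM 1.3.1 and STAR 2.7.6a, with cutadapt 3.4, Trim Galore 0.6.7, MultiQC 1.11, FastQC 0.11.9, R 4.1.3, DESeq2 1.34.0 and the mouse build GRCm38. Each tool's role, the strand setting and the annotation release are not named in those notes. The male table lists 28345 transcripts of 11999 genes, each with at least 10 counts in at least 9 of its 17 libraries. As 9 male libraries are repopulated and 8 resident, a transcript seen in resident libraries alone could not be listed. The totals are sums over listed transcripts, not sequencing depth.

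Transcripts were summed to genes. The main test was edgeR 4.0.16 (R 4.3.3; TMM, filterByExpr, which removed no gene, robust quasi-likelihood F test) on the 17 male libraries in 1 fit of 4 groups, Benjamini-Hochberg adjusted over all genes and called below 0.05. SE was taken as the size of the log2 change over the root of F. CPM values use TMM-scaled totals. The male minus female contrast used 1 fit of 8 groups. The fitting script was tested on simulated data. Gene positions are from GENCODE M21 and promoters from RefSeq, both GRCm38.

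The members and the 39 gene lists were chosen with earlier results of these data known, so they are no independent support. Named genes were the 10 largest rises and 10 largest falls among called genes of at least 5 CPM whose groups did not overlap, without predicted genes; up to 4 called members per list and direction by smallest adjusted p; a fixed panel (among them Apoe, P2ry12, Tmem119, Lyz2, Mki67, Fos and Csf1r); the gene of smallest p; and the called interaction genes. List members named as not called, or with a change alone, were chosen after their values were seen. Some genes the rule names are not reported here. Alternatives were other size factors, DESeq2 1.42.0, limma 3.58.1 voom, other filters, library depth, identifier range and replicate number in the model, subsets of libraries, and each library left out. Chi-square comparison of library pairs gave at least 11.3 per gene, so no library was a duplicate.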

Additional observations from a re-analysis of the deposited data

Results flagged for a closer look

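In each group the highest and lowest library of each named gene, and of the library totals, were set against the rest with Dixon's test. That test picks out about 1 in 20 groups by chance. Of 218 gene and group pairs it picked out 10, which is near that rate. Values are CPM. In resident libraries, Ifi44 was far lower in library 3 (0.0305, others 0.917 to 1.75), B2m was lower in library 5 (3959, others 4687 to 4883), and so was Ldhb (442, others 511 to 538). Among repopulated libraries, library 1 was set apart by 5 genes: lower for Ifi213 (3.47, others 14.0 to 39.5), Sall1 (299, others 346 to 387) and Mcm2 (1.19, others 8.68 to 15), and higher for Khdrbs3 (20.5, others 6.18 to 7.18) and Ighm (398, others 321 to 339). Gpr165 was far lower in repopulated library 3 (0.46) and Thsd1 in repopulated library 2 (0.0875). The total of listed transcripts was highest in repopulated library 4 (14914799, others 9644000 to 11862100).

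One result differed between fracture states by the test of the difference itself. The repopulated minus resident change of Bckdhb with fracture minus that without was 9.29 on the log2 scale by edgeR (Benjamini-Hochberg adjusted p = 0.0341). The 2 repopulated libraries without fracture hold 0 counts of it, so the fitted size depends on the prior count and is no bound.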

How the results depend on the processing

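The 589 calls of the comparison became 342 (232 higher, 110 lower) with log2 library total as a covariate, 39 within the libraries V64 to V69, 43 within V99 to V110, and 400 to 716 when 1 library was left out. The other settings gave 512 to 843 calls, the latter by DESeq2, including 700 without repopulated libraries 1, 2 and 5, an alternative chosen after seeing the data. With the replicate block 293 were called (194 higher, 99 lower), of which 274 were among the 589. The shared numbers do not pair the libraries: deviations of same-numbered libraries correlated at -0.03, 0.02, -0.02, -0.09 and 0.0 over 9523 genes, and no library correlated best with its own number.

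The interaction, called for 1 gene, was called for 49 by DESeq2 (with no adjusted p for 10933 genes), 2 with a mean of at least 5 CPM, 57 with the replicate block, 2 without repopulated libraries 1, 2 and 5, 0 with identifier range, library total or limma-voom, and 0 to 14 when 1 library was left out. The male minus female difference was called for 4 genes by DESeq2 and 0 to 1 when 1 library was left out. The cause was not tested.

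Among the genes named here, 4 that were not called changed sign. Within V99 to V110, Clec12a was at -1.04, H2-Aa at -0.87 and Cd74 at -0.13. Csf1r was at 0.0 with RLE size factors, DESeq2, at least 5 CPM, identifier range or limma-voom, at 0.01 with library total, 0.09 within V99 to V110, 0.03 without repopulated libraries 1, 2 and 5, and 0.01 to 0.04 (0.02 without resident library 3 or repopulated library 7) when 1 library was left out. Few counts limit genes near 0 in 1 group.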
